A study of Mus musculus with 3 samples.

Results

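The genes described here are 10 genes for receptors and enzymes that set vascular tone, taken by name from a table of 32285 genes: the endothelin receptors Ednra and Ednrb, the angiotensin II receptor Agtr1a and the angiotensin-converting enzyme Ace, the natriuretic peptide receptor Npr3, the prostanoid enzymes Ptgs1, Ptgs2 and Ptgis, the prostaglandin E receptor Ptger3 and the ATP-gated channel P2rx1. All 10 had UMIs (unique molecular identifiers, 1 for each captured RNA molecule) in smooth muscle-like cells of all 3 libraries. The cells came from whole aortas, from the arch to the iliac bifurcation, of male mice on a C57BL/6J background in which human APOE2, APOE3 or APOE4 stands in the place of the mouse Apoe gene. All mice ate a Western-type diet with 42% fat and 0.2% cholesterol for 16 weeks, starting at 12 weeks of age, so no group on a plain diet was compared. Digested aortas were pooled by genotype into 1 droplet library each, from 6 mice for APOE2, 5 for APOE3 and 7 for APOE4. A difference between genotypes therefore has no replicate check, while a difference between cell classes can be set against the spread over the 3 libraries.

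Vascular tone is the balance of signals that contract and relax smooth muscle. Endothelin acts on Ednra and Ednrb, angiotensin II, which Ace cuts from its precursor, acts on the angiotensin type 1 receptor, and Npr3 takes natriuretic peptides out of circulation. The cyclooxygenases Ptgs1 and Ptgs2 start the synthesis of all prostanoids, Ptgis finishes that of the relaxing prostacyclin, Ptger3 answers prostaglandin E2 by lowering cyclic AMP, and P2rx1 lets calcium into smooth muscle when nerves release ATP.

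The libraries held 12288, 7247 and 8971 barcodes in the order APOE2, APOE3 and APOE4, an order kept for all sets of 3 values in the text, and 11772, 6737 and 8248 of them passed the filters. Median depth was 12047, 17618 and 13522 UMIs a cell. Pairs of libraries shared between 23 and 30 barcodes, at most 0.359% of the smaller library. Apoe itself had 191, 200 and 181 CPM (UMIs of a gene for each 1e6 UMIs), all assigned to the mouse gene model, so it could not check which human allele a library carried. Clustering without these 10 genes gave 21 clusters. By markers, 10 clusters were smooth muscle-like, with 7425, 4304 and 5625 cells. Fibroblast-like cells numbered 1291, 691 and 1013, macrophage-like cells 561, 156 and 191, endothelial-like cells 152, 29 and 36, T lymphocyte-like cells 123, 19 and 103 and neutrophil-like cells 80, 11 and 7, while 6 clusters stayed unnamed. The 10 smooth muscle markers summed to 42035, 49922 and 47386 CPM in smooth muscle-like cells, and the 8 fibroblast markers there summed to between 456 and 998 CPM. The small endothelial-like cluster had all 8 endothelial markers in each library, at 3360 to 4535 CPM in sum. Fibroblast markers there summed to 1460, 1623 and 689 CPM and lymphatic endothelial markers to 352, 67.8 and 5.26 CPM. Unnamed cluster K15, with 212, 372 and 47 cells, had 5 of 8 endothelial markers raised but kept 10 of 10 smooth muscle markers. It is not part of the endothelial-like class. The endothelial-like cluster also held Schwann cell markers at 48.1, 2270 and 1100 CPM. Endothelial-like values are therefore given below with the 3, 4 and 10 Schwann-marked cells left out where that changed a call or a stated overlap of ranges.

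Promoter windows are printed for the 4 genes whose levels differed with position along the aorta in the test described further on. The sequences are RefSeq's on GRCm38.p6, in which 8 of the 10 genes had an entry; Ptgis and Agtr1a had none. Each window has 300 bases, runs 5′ to 3′ on the plus strand and ends just inside the transcript. Capitals in Ace, a plus-strand gene, mark the letters TATAAA (those of a TATA box) read on the strand opposite to the gene. In Ptgs2 they mark the letters CGTCA (part of a cyclic AMP response element) overlapping CACGTG (an E-box). The Ptgs2 letters, at bases 264 to 272 of the window, lie after the annotated start of the gene.
Ptger3, chr3:157566626-157566925: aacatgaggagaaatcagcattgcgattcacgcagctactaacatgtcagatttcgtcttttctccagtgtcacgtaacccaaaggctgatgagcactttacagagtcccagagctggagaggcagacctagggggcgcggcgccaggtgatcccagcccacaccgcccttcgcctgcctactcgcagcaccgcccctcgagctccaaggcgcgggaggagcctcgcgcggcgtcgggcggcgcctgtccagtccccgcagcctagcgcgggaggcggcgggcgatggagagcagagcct
P2rx1, chr11:72998895-72999194: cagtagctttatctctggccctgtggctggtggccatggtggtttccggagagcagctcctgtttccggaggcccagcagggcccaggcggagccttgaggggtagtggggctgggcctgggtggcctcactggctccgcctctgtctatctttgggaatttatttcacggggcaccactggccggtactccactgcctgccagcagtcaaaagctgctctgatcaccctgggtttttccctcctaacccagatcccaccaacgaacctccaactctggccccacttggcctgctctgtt
Ace, chr11:105967698-105967997: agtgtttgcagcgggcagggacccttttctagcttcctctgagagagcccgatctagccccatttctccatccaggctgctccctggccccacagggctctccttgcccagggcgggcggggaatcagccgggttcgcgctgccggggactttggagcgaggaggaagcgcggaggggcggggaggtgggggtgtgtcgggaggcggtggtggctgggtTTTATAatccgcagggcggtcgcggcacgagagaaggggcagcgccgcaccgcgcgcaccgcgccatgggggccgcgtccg
Ptgs2, chr1:150099781-150100080: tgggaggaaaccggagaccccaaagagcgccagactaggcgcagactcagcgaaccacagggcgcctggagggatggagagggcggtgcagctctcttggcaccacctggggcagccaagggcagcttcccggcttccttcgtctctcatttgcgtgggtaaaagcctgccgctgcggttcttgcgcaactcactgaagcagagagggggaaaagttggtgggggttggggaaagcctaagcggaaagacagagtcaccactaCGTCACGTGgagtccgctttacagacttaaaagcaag
On both strands, TATAAA was found in 13.6% of 32851 promoter windows. Among these genes it was in the Ace window printed above, at bases 220 to 225. It was not in another Ace window (chr11:105974939-105975238), which is not printed. CGTCA was found in 20.8% of all windows and in those of Ednrb, Npr3 and Ptgs2, and CACGTG in 7.15% and in that of Ptgs2. The CArG box of smooth muscle genes, found in 1.63% of all windows, the full element TGACGTCA (1.79%), which contains CGTCA, and the AP-1 motif TGANTCA (7.81%) were not in any window of the 8 genes. These are matches of letters in a short window and not measured sites. By GENCODE on GRCm38 the 10 genes lie on 8 chromosomes, with Ptgs1 (chr2:36230426-36252272, plus strand) and Ptgis (chr2:167191805-167240604, minus strand) on one and P2rx1 (chr11:72999103-73015200) and Ace (chr11:105967945-105989964), both on the plus strand, on another.

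Between classes of cells the 10 genes took different places in the vessel wall. P2rx1, Ptger3 and Ptgis were higher in smooth muscle-like than in fibroblast-like cells, Ednra, Agtr1a, Ptgs1 and Ace were higher in fibroblast-like cells, and Ednrb stood highest in macrophage-like and endothelial-like cells. UMIs were summed by library and class and tested with edgeR's quasi-likelihood test across all genes, with Benjamini-Hochberg adjustment and a threshold of 0.05. The test found 7 of the 10 genes different between fibroblast-like and smooth muscle-like cells, where 52.5% of all 14442 genes tested were different. It found 6 of 10 between endothelial-like and smooth muscle-like cells, against 35.6% of all genes, and 8 of 10 between macrophage-like and smooth muscle-like cells, against 62.4% of all genes. The median log2 difference over the 10 genes was 0.40, -0.92 and -1.59 in these comparisons, and over all genes 0.02, -0.10 and -0.16. With library as a term in the fit, these p-values rest on how much class differences varied over 3 pools that also differ in genotype. The classes shared 1 estimate of that spread.

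**Figure D1:**
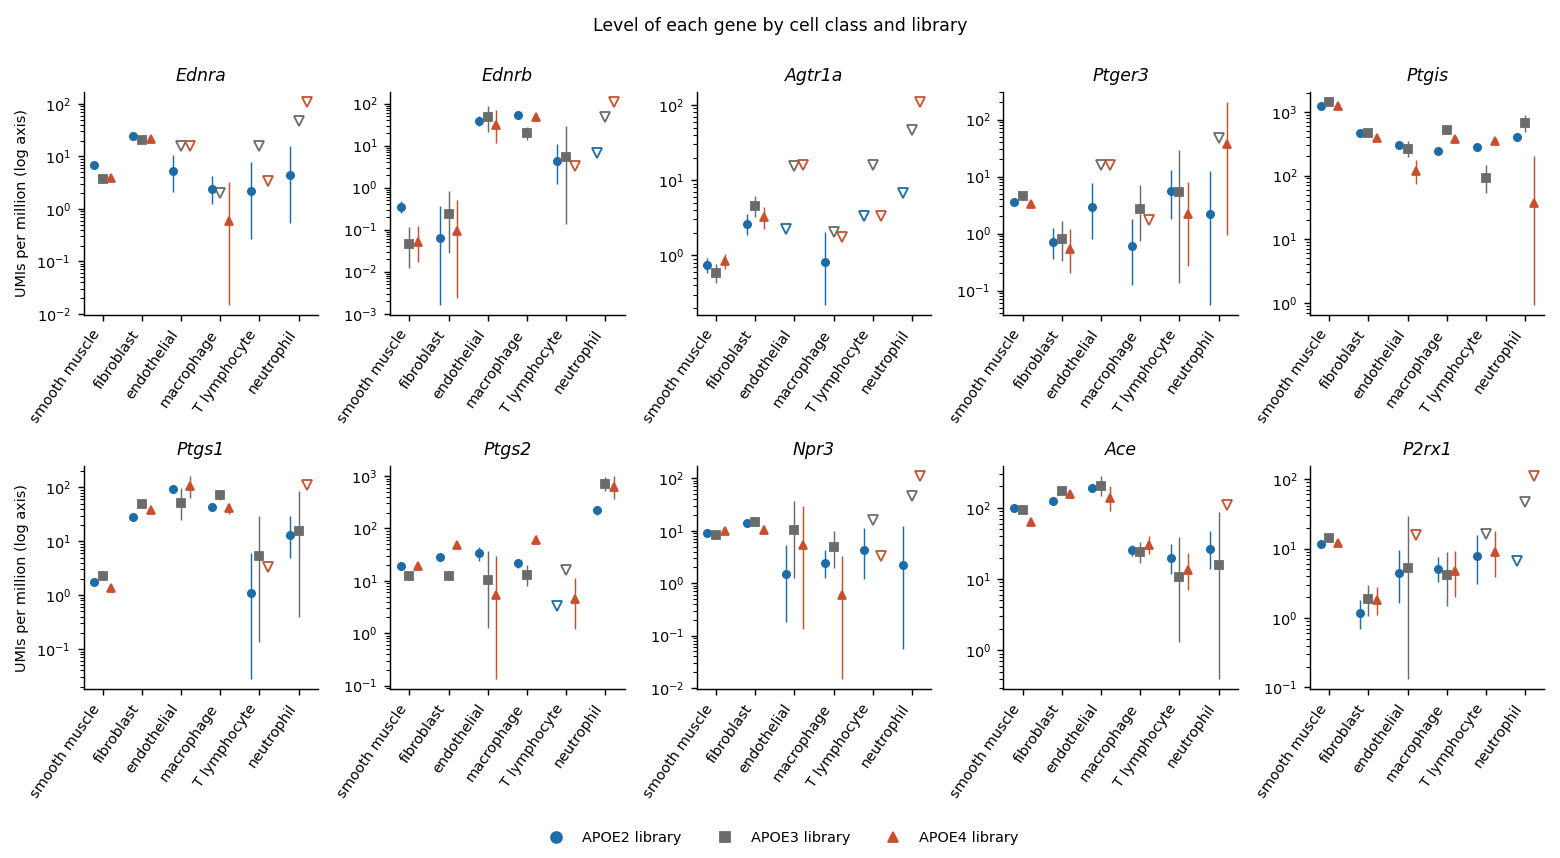
Level of each gene, in CPM on a log axis, in the named cell classes, with 1 point for each library (APOE2, APOE3, APOE4) and exact 95% Poisson intervals for counting error only; open downward triangles mark 0 UMIs, drawn at the level that 3 UMIs would give. Ednrb stands at 19.9 to 52.8 in macrophage-like cells and below 0.4 in smooth muscle-like cells, and Ptgis stands at 1229 or above in smooth muscle-like cells of all 3 libraries.

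The endothelin receptors were found in different cells. Ednra, the receptor through which endothelin contracts muscle, stood at 6.78, 3.76 and 3.92 CPM in smooth muscle-like cells (778, 338 and 382 UMIs) and at 24.2, 20.6 and 21.9 CPM in fibroblast-like cells. The ranges did not overlap, and the fibroblast-like level was higher by 2.07 ± 0.21 on the log2 scale (SE, n = 3 libraries, edgeR adjusted p = 4.87e-06). In macrophage-like cells Ednra had 12, 0 and 1 UMIs, lower than in smooth muscle-like cells (log2 difference -1.85 ± 0.45, edgeR adjusted p = 0.00305). Ednrb, which clears endothelin and in endothelium releases relaxing factors, had 262, 29 and 82 UMIs in macrophage-like cells, or 52.8, 19.9 and 48.1 CPM. In endothelial-like cells it had 53, 9 and 6 UMIs, or 39.2, 47.0 and 31.6 CPM, a range inside that of the macrophage-like cells. With the Schwann-marked cells left out the endothelial-like level was 39.6, 32.5 and 39.9 CPM. Smooth muscle-like cells had 40, 4 and 5 UMIs of Ednrb in all, and fibroblast-like cells 1, 2 and 1. Against smooth muscle-like cells Ednrb was higher by 7.97 ± 0.43 in macrophage-like cells (edgeR adjusted p = 8.53e-09) and by 7.46 ± 0.57 in endothelial-like cells (edgeR adjusted p = 8.41e-07), both on the log2 scale. Endothelial markers in the macrophage-like cells summed to 27.4, 38.4 and 49.3 CPM. UMIs were found for 5, 6 and 5 of the 8 markers, while Tie1 and Cldn5 were at 0 in all 3 libraries. What part of Ednrb in macrophage-like cells came from endothelial cells was not tested. Between fibroblast-like and smooth muscle-like cells the test did not separate Ednrb (log2 difference -0.63, edgeR adjusted p = 0.648).

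Of the renin-angiotensin genes, Ace was high in smooth muscle-like, fibroblast-like and endothelial-like cells and lower in macrophage-like cells. Agtr1a was sparse in every class. Ace stood at 98, 92.9 and 64 CPM in smooth muscle-like cells, 126.2, 171 and 157 CPM in fibroblast-like cells and 189, 204 and 137 CPM in endothelial-like cells. The fibroblast-like and endothelial-like ranges overlapped each other, and both lay above the smooth muscle-like range. With the Schwann-marked cells left out, the endothelial-like level was 191, 254 and 173 CPM from 255, 39 and 26 UMIs. That range lay above the fibroblast-like one. Macrophage-like cells, at 25.6, 24.0 and 30.5 CPM, lay below the smooth muscle-like range (log2 difference -1.76 ± 0.20, edgeR adjusted p = 9.39e-06). Ace was higher by 0.66 ± 0.17 in fibroblast-like cells (edgeR adjusted p = 0.00632) and by 0.73 ± 0.20 in endothelial-like cells (edgeR adjusted p = 0.0141), on the log2 scale against smooth muscle-like cells. The first call was lost without the APOE4 library (edgeR adjusted p = 0.0722), and the second without the APOE2 (0.0735) or the APOE3 library (0.0664). Agtr1a had 84, 52 and 81 UMIs in smooth muscle-like cells, or 0.733, 0.578 and 0.831 CPM, and 40, 39 and 35 UMIs in fibroblast-like cells, or 2.58, 4.52 and 3.19 CPM. The fibroblast-like level was higher by 2.04 ± 0.40 on the log2 scale (edgeR adjusted p = 0.00144). In endothelial-like cells Agtr1a had 0 UMIs in all libraries, which allows up to 2.22, 15.7 and 15.8 CPM (the level of 3 UMIs), and it had 0 UMIs in T lymphocyte-like and neutrophil-like cells too. Agtr1b, its near-identical copy, stood at 1.28, 1.10 and 1.66 CPM in smooth muscle-like cells, and because 3′ reads can be shared between the copies the level of either one is uncertain.

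The natriuretic peptide clearance receptor was measured in both muscle and fibroblasts. Npr3 had 9.17, 8.30 and 9.80 CPM in smooth muscle-like cells and 14.3, 14.5 and 10.6 CPM in fibroblast-like cells. The ranges did not overlap, yet the model did not separate them (log2 difference 0.33, edgeR adjusted p = 0.223). Macrophage-like cells had 12, 7 and 1 UMIs, lower by -1.97 ± 0.38 on the log2 scale (edgeR adjusted p = 6.2e-04). The lower level in endothelial-like cells (-1.94 ± 0.65, edgeR adjusted p = 0.034) was not called with DESeq2 (0.052), without the Schwann-marked cells (0.0615) or without the APOE2 library (0.702). Other genes of natriuretic peptide and cyclic GMP signaling, most of which carry the relaxing signal inside muscle, were lower in the other classes than in smooth muscle-like cells: 5 of the 6 tested in fibroblast-like, 6 of 6 in endothelial-like and 6 of 6 in macrophage-like cells. Of all genes tested 25.1, 19 and 34.2% were lower in these comparisons.

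The 2 cyclooxygenases differed in where they were found. Ptgs1, the constitutive form, had 202, 205 and 135 UMIs in smooth muscle-like cells, or 1.76, 2.28 and 1.38 CPM. It stood at 28.5, 49.1 and 38.6 CPM in fibroblast-like cells, 44.2, 71.9 and 41.7 CPM in macrophage-like cells and 93.2, 52.2 and 105 CPM in endothelial-like cells. Those 3 classes overlapped in part, and all lay above smooth muscle-like cells, by 4.22 ± 0.22, 4.74 ± 0.23 and 5.35 ± 0.29 on the log2 scale (edgeR adjusted p = 1.1e-08, 3.67e-09 and 4.76e-08). Ptgs2, the inducible form, was not separated in any of the 3 comparisons. It stood at 19.0, 12.2 and 19.4 CPM in smooth muscle-like cells, 29.0, 12.4 and 48.0 CPM in fibroblast-like cells and 21.6, 13.0 and 61.0 CPM in macrophage-like cells, so that the classes overlapped and APOE3 was lowest in each. The log2 difference to smooth muscle-like cells was 0.48 in fibroblast-like cells (edgeR adjusted p = 0.156) and 0.59 in macrophage-like cells (edgeR adjusted p = 0.128). At the finer clustering both were called, at 0.71 (edgeR adjusted p = 0.0395) and 1.00 (0.0175), as they were with cells classed one by one from their markers (0.0131 and 0.00608). The highest level of Ptgs2 was in neutrophil-like cells, at 223, 718 and 625 CPM from 100, 46 and 17 UMIs, the last from 7 cells.

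Ptgis, the prostacyclin synthase, had by far the most UMIs of these genes, 144373, 128857 and 119760 in smooth muscle-like cells, or 1259, 1433 and 1229 CPM. Fibroblast-like cells had 462, 474 and 392 CPM, endothelial-like cells 307, 261 and 116 CPM and macrophage-like cells 243, 514 and 377 CPM. Each class was lower than smooth muscle-like cells, with log2 differences of -1.75 ± 0.26, -2.80 ± 0.29 and -1.93 ± 0.27 (edgeR adjusted p = 1.12e-04, 1.07e-05 and 4.19e-05). Free RNA and joined cells can carry an abundant muscle gene into other droplets, so Ptgis was set beside the summed 10 smooth muscle markers, each as a percentage of its own smooth muscle-like level in the same library. In macrophage-like cells the markers stood at 19.1, 35.1 and 27.5% and Ptgis at 19.3, 35.9 and 30.7%. In T lymphocyte-like cells the markers stood at 25.2, 10.0 and 24.1% and Ptgis at 22, 6.33 and 28.8%. In macrophage-like cells both were lowest in APOE2 and highest in APOE3, and in T lymphocyte-like cells both were lowest in APOE3, while APOE2 and APOE4 stood in opposite orders. In fibroblast-like cells Ptgis, at 36.7, 33.1 and 31.9%, stood above the markers at 11.4, 14.5 and 13.0%, and in endothelial-like cells it stood at 24.4, 18.2 and 9.42% against 13.2, 3.28 and 2.83%. What part of Ptgis in these classes came from muscle was not tested.

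**Figure D2:**
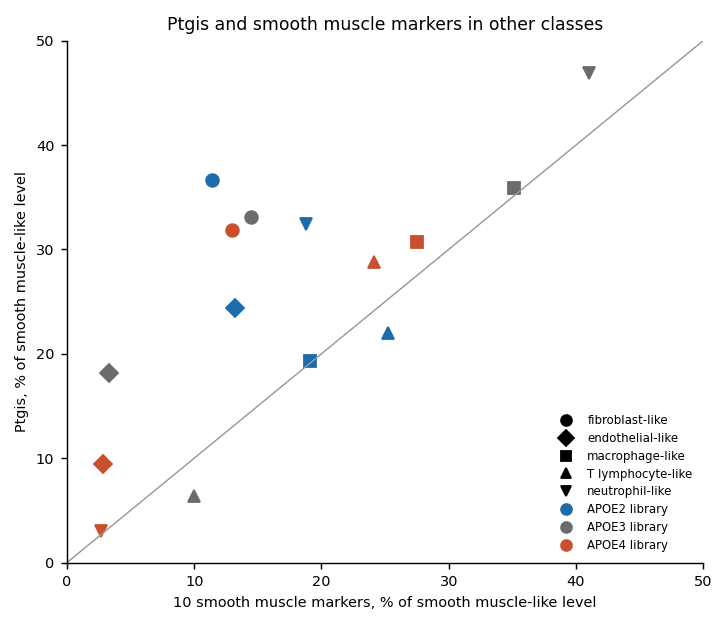
Ptgis (vertical axis) against the sum of 10 smooth muscle markers (horizontal axis) in each class and library, each as a percentage of its smooth muscle-like level in that library; the grey line marks equal percentages. Macrophage-like points lie near the line, while the fibroblast-like points, at 31.9 to 36.7% for Ptgis, lie above it.

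P2rx1 and Ptger3 were both higher in smooth muscle-like than in fibroblast-like cells. P2rx1 had 1313, 1260 and 1166 UMIs in smooth muscle-like cells, or 11.4, 14 and 12 CPM, and 1.16, 1.85 and 1.82 CPM in fibroblast-like cells. It was lower in fibroblast-like, endothelial-like and macrophage-like cells, with log2 differences of -3.17 ± 0.22, -1.86 ± 0.44 and -1.43 ± 0.25 (edgeR adjusted p = 1.43e-07, 0.0055 and 2.91e-04). The endothelial-like call was lost without the APOE2 library (edgeR adjusted p = 0.0584) and with cells classed one by one from their markers (0.393). Ptger3 had 414, 411 and 323 UMIs in smooth muscle-like cells, or 3.61, 4.57 and 3.31 CPM, and 11, 7 and 6 UMIs in fibroblast-like cells. It was lower by -2.65 ± 0.38 in fibroblast-like cells (edgeR adjusted p = 8.73e-05) and by -2.18 ± 0.55 in macrophage-like cells (edgeR adjusted p = 0.004), the latter not without the APOE2 library (0.0689). Endothelial-like cells were not separated from smooth muscle-like cells (log2 difference -1.03, edgeR adjusted p = 0.325). T lymphocyte-like cells had 5, 1 and 2 UMIs of Ptger3, at 5.49, 5.33 and 2.23 CPM, a higher mean (4.35 against 3.83 CPM) from few UMIs, and the 2 classes overlapped. In fibroblast-like cells P2rx1 stood at 10.2, 13.2 and 15.2% of its smooth muscle-like level and Ptger3 at 19.7, 17.7 and 16.5%. The summed smooth muscle markers stood there at 11.4, 14.5 and 13.0%. What part of the 2 genes in fibroblast-like cells came from muscle was not tested.

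The share of cells with at least 1 UMI, after each cell was thinned to 1000 UMIs, was compared for the abundant genes. Ptgis was seen in 68.1, 73.5 and 68.4% of smooth muscle-like cells (exact Clopper-Pearson 95% intervals from 67.0 to 74.9% over the libraries). It was seen in 7.50, 15.8 and 11.8% of T lymphocyte-like cells, which should lack it (intervals from 3.38 to 39.6%). Unthinned, the shares were 97.9, 98.6 and 98.1% against 15.4, 26.3 and 18.4%, at median depths of 13640 to 19770 and 5509 to 6965 UMIs. Ace was seen in 8.06, 7.72 and 5.52% of thinned smooth muscle-like cells and in 0 of 120, 19 and 102 thinned T lymphocyte-like cells, for which the intervals reach 3.03, 17.6 and 3.55%.

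Among the other 70 genes listed for these pathways, 40 of the 54 tested (74.1%, against 52.5% of all genes) differed between fibroblast-like and smooth muscle-like cells, 21 of them higher in fibroblast-like cells and 19 lower. Fibroblast-like cells held the prostaglandin F receptor Ptgfr (34.5, 40.3 and 46.8 CPM against at most 0.29 CPM) and the prostaglandin E synthase Ptges (19.8, 16.8 and 15.8 CPM against at most 0.75 CPM). Of the 54 genes, 34 (63%, against 35.6% of all genes) differed in endothelial-like cells, 16 higher and 18 lower. The endothelin-converting enzyme Ece1 stood there at 376, 224 and 237 CPM against 25.2, 23.0 and 22.3 CPM in smooth muscle-like cells, and the prostaglandin transporter Slco2a1 at 207, 83.5 and 189 CPM against 9.82, 4.92 and 2.71 CPM. In macrophage-like cells 37 of the 54 differed (68.5%, near the 62.4% of all genes), 17 higher and 20 lower. The prostaglandin D synthase Hpgds (175, 230 and 245 CPM), the thromboxane synthase Tbxas1 (150, 170 and 107 CPM) and the prostaglandin-degrading Hpgd (279, 455 and 333 CPM) were higher there, as were 9 of the 12 purinergic genes, with 0 lower, where 28.3% of all genes were higher.

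Along the aorta, smooth muscle-like cells were divided by position without use of the 10 genes. Hand2, a transcription factor of arch and outflow muscle, marked one end, and 13 Hox genes of the descending aorta the other. Cells with a Hand2 UMI and no Hox UMI numbered 3264, 1265 and 1046, which was 44.0, 29.4 and 18.6% of smooth muscle-like cells, and cells with a Hox UMI and no Hand2 UMI numbered 1381, 1452 and 2406, or 18.6, 33.7 and 42.8%. The mix of positions thus differed between libraries, and with 1 pool for each genotype the mix and the genotype cannot be told apart. Median depth was 15484, 22285 and 17494 UMIs in Hand2-positive and 13397, 19748 and 15667 UMIs in Hox-positive cells. Cells with no Hand2 or Hox UMI made up 34.7, 34.1 and 36.1% of smooth muscle-like cells, at lower median depths of 10617, 16978 and 13244 UMIs. Cells with both kinds made up 2.69, 2.76 and 2.58%. These groups were left out of the comparison of positions. Since 1 UMI was enough to place a cell, carried-over RNA could put some cells in the wrong group. How many were misplaced was not measured, and it may differ between libraries with the mix of positions.

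Position separated 4 of the 9 genes that passed the count filter (Ednrb did not), against 12.5% of all 14475 genes tested with edgeR. The median log2 difference was 0.26 over the 9 genes and -0.01 over all genes. Ptger3 stood at 1.04, 1.04 and 0.474 CPM in Hand2-positive and 10.2, 10.1 and 5.99 CPM in Hox-positive cells. The ranges did not overlap (log2 difference -3.32 ± 0.14, edgeR adjusted p = 5.85e-06). P2rx1 stood at 7.29, 8.25 and 3.42 CPM in Hand2-positive and 27.1, 23.0 and 19.0 CPM in Hox-positive cells, likewise lower at the Hand2 end (log2 difference -1.84 ± 0.14, edgeR adjusted p = 1.84e-04).

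Ace went the other way, with 113, 124 and 83.7 CPM in Hand2-positive and 60.1, 59.0 and 48.2 CPM in Hox-positive cells. The ranges did not overlap, and Hand2-positive cells were higher by 0.96 ± 0.06 on the log2 scale (edgeR adjusted p = 4.74e-05). Ptgs2, at 18.3, 14.4 and 23.4 CPM in Hand2-positive and 15.3, 9.91 and 14 CPM in Hox-positive cells, was higher at the Hand2 end in each library (0.55 ± 0.09, edgeR adjusted p = 0.00661). Ednra was also higher at the Hand2 end in each library, at 5.32, 3 and 3.51 against 4.54, 1.19 and 2.09 CPM. Its log2 difference of 0.72 was not called (edgeR adjusted p = 0.0616), though it was under 4 other settings, with adjusted p from 9.14e-05 to 0.0252. Ptgis (-0.10, edgeR adjusted p = 0.116, and 0.0251 without the APOE2 library), Agtr1a (0.55, 0.25), Ptgs1 (0.26, 0.593) and Npr3 (0.08, 0.648) were not separated by position. Of the pathway genes 20 of the 48 tested differed, 9 higher and 11 lower at the Hand2 end, and 3 of the 4 renin-angiotensin genes tested were lower there, among them Agtr1b (log2 difference -2.34) and the angiotensin-cleaving Enpep (-1.41). Of all genes 7.72% were higher and 4.8% lower at the Hand2 end.

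**Figure D3:**
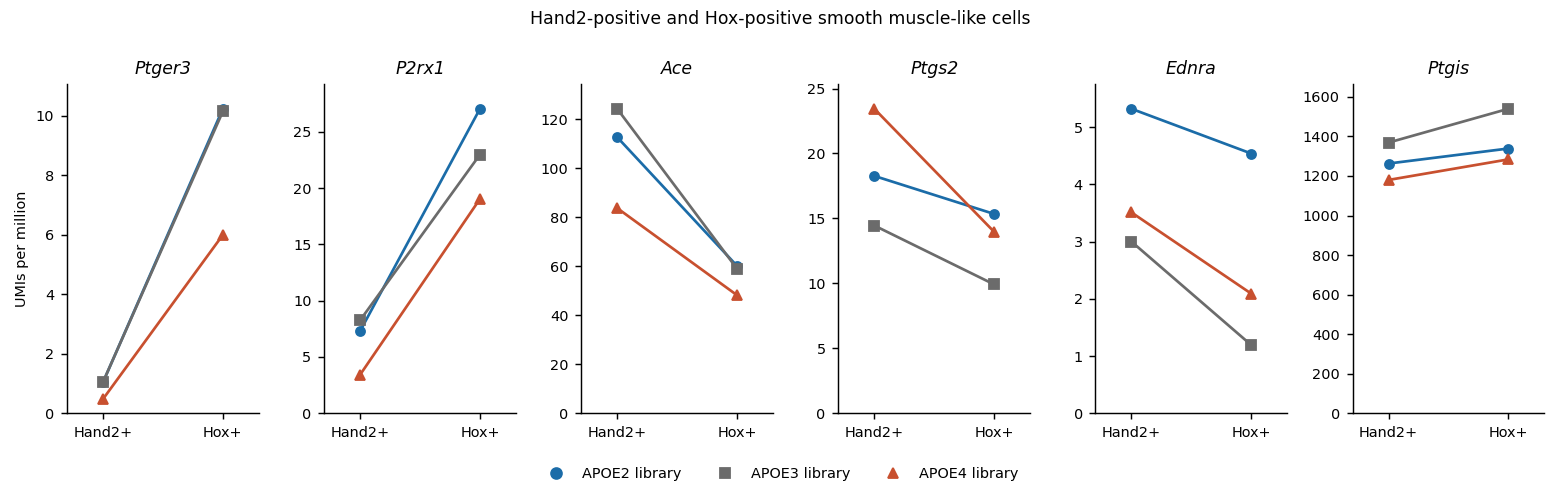
Level in CPM in Hand2-positive and Hox-positive smooth muscle-like cells, with 1 line for each library and 1 panel for each of 6 genes, each axis from 0. Ptger3 and P2rx1 rise towards the Hox-positive cells in all 3 libraries, and Ace falls.

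Clusters within smooth muscle are described without a test, since cells of 1 library share their source. In cluster K14, which was led by the developmental transcription factors Msx2, Dlx1 and Barx1 together with Ralyl, Fgf12 and Fgf5, Ednra stood at 44.4, 55.2 and 34.0 CPM, above every other cluster that kept the muscle markers in every library. Ednra in K14 was also above its fibroblast-like level of 24.2, 20.6 and 21.9 CPM. The same cluster had the lowest P2rx1, at 1.47, 2.00 and 1.90 CPM. Its Ace, at 176, 166 and 101 CPM, was among the highest. Cluster K11, led by Spp1, Timp1, Lcn2 and the adhesion gene Vcam1, had the highest Ptgs2, at 85.4, 37.5 and 53.8 CPM, and the highest Ace, at 201, 227 and 140 CPM. K11 kept 8 of the 10 smooth muscle markers. At the finer clustering a cluster led by Spp1 and Lcn2, with 229, 30 and 30 cells, kept 1 of 10 and stayed unnamed. Whether its cells came from K11 was not tested. Ptgs1 was above the other smooth muscle-like clusters in K14 and K11, with 7.89, 15.0 and 6.83 CPM in K14 and 7.49, 13 and 9 CPM in K11. Among these clusters Ptger3 was highest in K8, at 26.9, 22.1 and 13.0 CPM, a cluster that kept the smooth muscle markers, was led by Rgs5, Ptger3 and Hoxa7 and was left unnamed. Ace was lowest in that cluster, at 51.1, 47.4 and 42.1 CPM. By its mean over libraries P2rx1 was highest in K4 (22.4, 18.6 and 16.5 CPM) and K0 (22.2, 19.5 and 15.8 CPM), while K7 (9.99, 18.9 and 16.6 CPM) was above K4 in APOE3 and above both in APOE4.

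**Figure D4:**
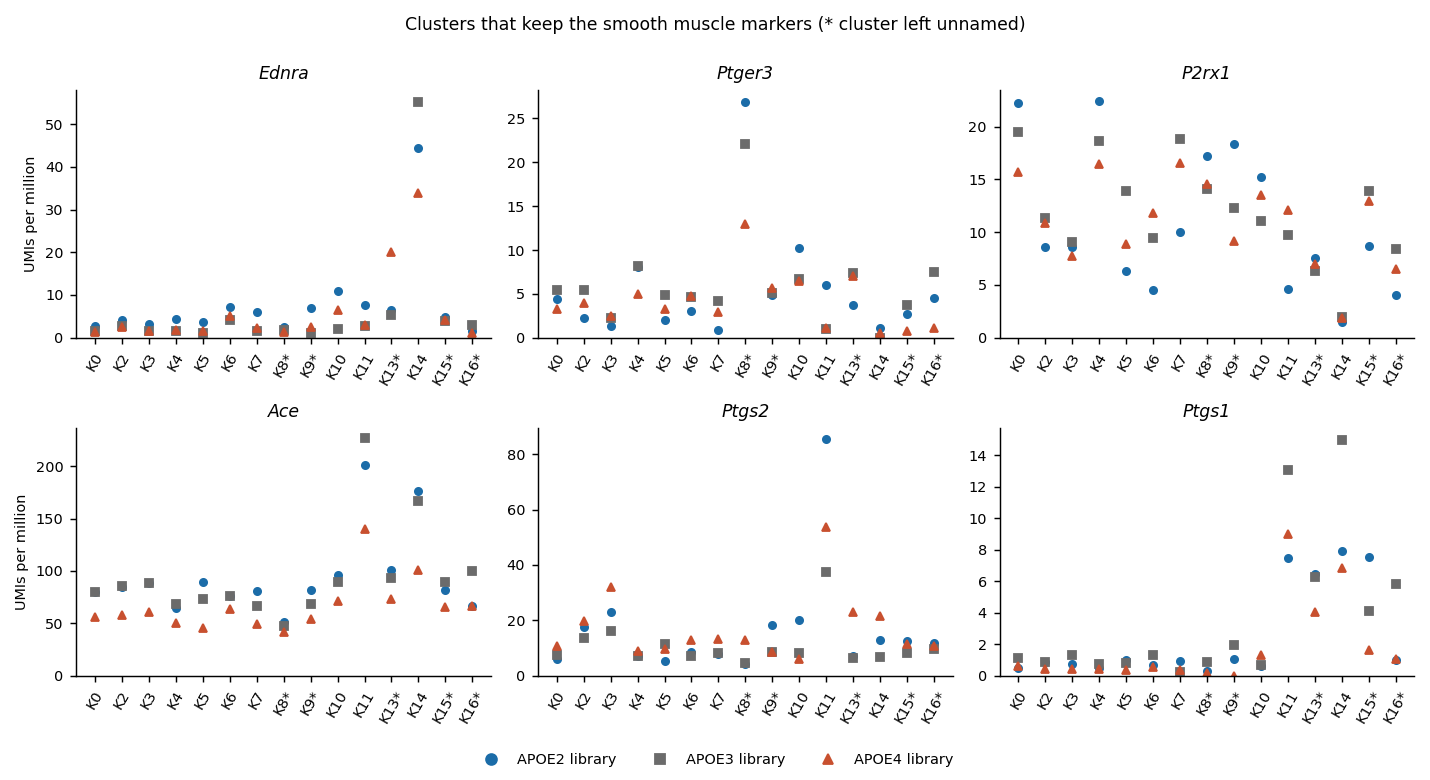
Level in CPM of 6 of the genes in each cluster that kept the smooth muscle markers, with 1 point for each library and each axis from 0; a star marks clusters outside the smooth muscle-like class. Ednra stands out in K14, Ptgs2 in K11 and Ptger3 in K8.

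Between genotypes, values are ratios of 1 library to another, with exact 95% intervals that cover counting error only, and no test was possible. A gene was counted where its ratio was at least 1.5 in either direction, among genes with at least 50 UMIs in both libraries together. In smooth muscle-like cells 2 of 9 genes were past it from APOE3 to APOE2 (12.4% of all genes), 2 of 9 from APOE3 to APOE4 (11.4%) and 2 of 9 from APOE2 to APOE4 (17.4%). In fibroblast-like cells the counts were 3 of 7 (10.9%), 1 of 7 (10.1%) and 1 of 7 (13.7%), and in macrophage-like cells 4 of 5 (19.2%), 3 of 5 (16.2%) and 2 of 5 (19.4%), in the same order. The median gene was shifted by -0.09 from APOE3 to APOE4 and by -0.11 from APOE2 to APOE4 in smooth muscle-like cells on the log2 scale, and by -0.11 from APOE3 to APOE4 in fibroblast-like cells.

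Ace was lower in APOE4 smooth muscle-like cells, at 64 CPM against 92.9 CPM in APOE3 (log2 ratio -0.54, interval -0.58 to -0.49) and 98 CPM in APOE2 (-0.61, interval -0.66 to -0.57). The ratio was below 0 in 10 of 10 smooth muscle-like clusters against each of the other libraries. Within Hand2-positive cells it was -0.57 against APOE3 and -0.43 against APOE2, and within Hox-positive cells -0.29 and -0.32. Ace, lower in Hox-positive cells, was thus lower in APOE4 within each position also, but by less than in all smooth muscle-like cells for 3 of these 4 ratios. In fibroblast-like cells Ace stood at 157 CPM in APOE4 and 126.2 CPM in APOE2 (log2 ratio 0.32, interval 0.22 to 0.41), but the ratio was -0.11 with cells classed one by one from their markers.

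Ptger3 and P2rx1 changed with how position was treated. In all smooth muscle-like cells P2rx1 differed little between APOE4 and APOE2, at 12 and 11.4 CPM (log2 ratio 0.06, interval -0.05 to 0.18). Within Hand2-positive cells it was lower in APOE4 by a log2 ratio of -1.09 (interval -1.48 to -0.73), and within Hox-positive cells by -0.51 (interval -0.66 to -0.35). Ptger3 from APOE2 to APOE4 was -0.12 (interval -0.34 to 0.09) in all smooth muscle-like cells, -1.13 (interval -2.26 to -0.15) in Hand2-positive cells from 10 against 60 UMIs and -0.77 (interval -1.04 to -0.50) in Hox-positive cells. Against APOE3 the same 3 values were -0.23, -1.27 and -0.27 for P2rx1 and -0.46, -1.14 and -0.76 for Ptger3. All these ratios leave out the unnamed cluster K8. Among clusters that kept the smooth muscle markers it had the highest Ptger3, at 26.9, 22.1 and 13.0 CPM. Within both positions the 2 genes were lower in APOE4, in a library that held the largest share of the Hox-positive cells in which they are high. The part of misplaced cells in the ratios within positions was not tested. Over clusters with at least 50 UMIs the signs were mixed. From APOE2 to APOE4, P2rx1 was above 0 in 5 of 9 clusters (median 0.335, highest 1.40 in K6) and below 0 in 4. Ptger3 was above 0 in 3 of 7 and below 0 in 4 (median -0.441). Against APOE3, P2rx1 in APOE4 was below 0 in 6 of 9 clusters and Ptger3 in 4 of 5.

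**Figure D5:**
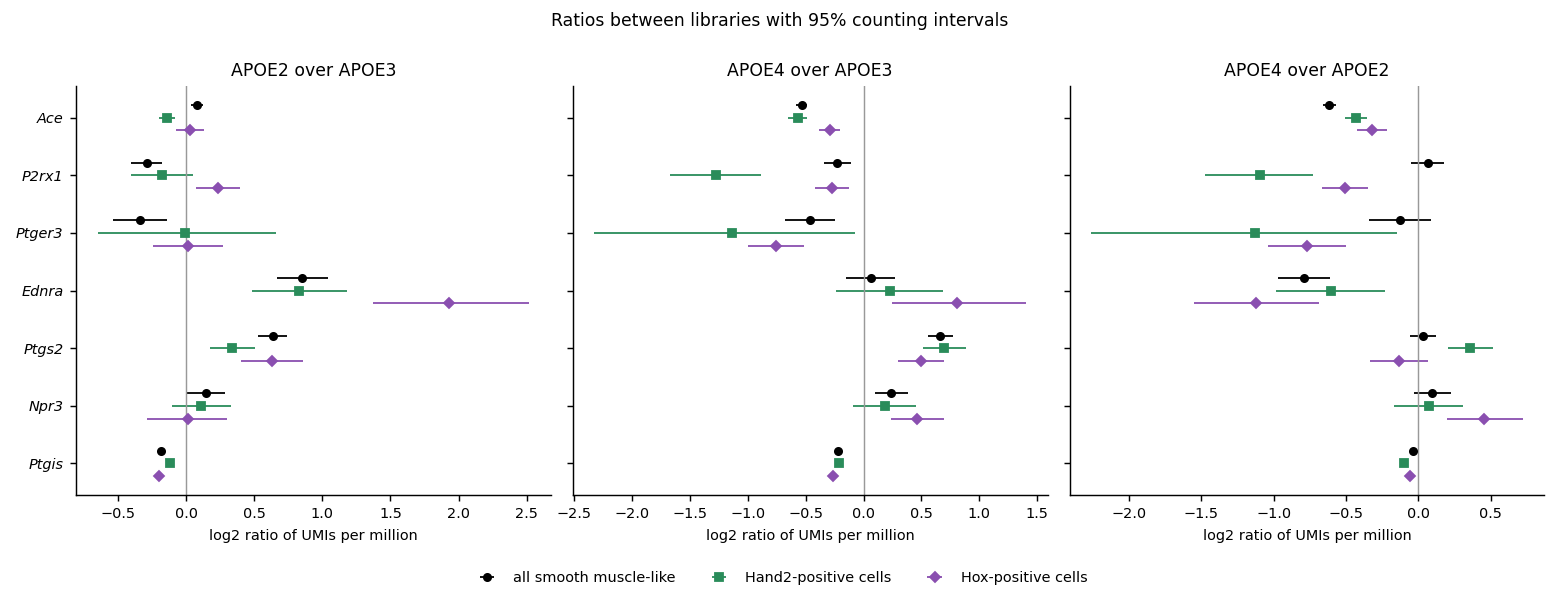
Log2 ratio between each pair of libraries (horizontal axis, 1 panel for each pair) for 7 of the genes in all smooth muscle-like cells, in Hand2-positive and in Hox-positive cells, with exact 95% intervals for counting error only; 0 marks equal levels. P2rx1 from APOE2 to APOE4 lies at 0.06 in all cells and at -1.09 and -0.51 within the positions.

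Ednra was higher in APOE2 smooth muscle-like cells, at 6.78 CPM against 3.76 CPM in APOE3 (log2 ratio 0.85, interval 0.67 to 1.04) and 3.92 CPM in APOE4. The ratio to APOE3 was 0.83 in Hand2-positive and 1.93 in Hox-positive cells, and 0.52 where each cluster was given the same weight in both libraries. It was above 0 in 7 of the 8 clusters with enough UMIs, the exception being K14, the cluster with most Ednra, at -0.31. Smooth muscle-like cells of APOE2 also held more fibroblast marker RNA, at 998 CPM summed over the 8 markers against 511 and 456 CPM, and Ednra is higher in fibroblast-like cells; the part of those cells in the ratio was not tested.

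Ptgs2 was lowest in APOE3 in smooth muscle-like, fibroblast-like and macrophage-like cells alike. In smooth muscle-like cells the log2 ratio to APOE3 was 0.63 in APOE2 (interval 0.53 to 0.74) and 0.66 in APOE4 (interval 0.55 to 0.77), but from APOE3 to APOE2 it was -0.05 with cells classed one by one from their markers and 0.06 at the finer clustering. Over clusters, the ratio of APOE2 to APOE3 was above 0 in 6 of 10 and below 0 in 4, and that of APOE4 to APOE3 was above 0 in 8 of 9. Of the 2176 Ptgs2 UMIs in smooth muscle-like cells of the APOE2 library 1015 came from cluster K11. In the same class it was 239 among 1100 in APOE3 and 329 among 1887 in APOE4. Without it the levels were 11.3, 10.3 and 17.1 CPM, and the log2 ratio to APOE3 was 0.13 in APOE2 and 0.73 in APOE4. In fibroblast-like cells it was 1.23 in APOE2 and 1.95 in APOE4 (interval 1.65 to 2.27). In macrophage-like cells it was 2.23 in APOE4 (interval 1.51 to 3.02) from 104 against 19 UMIs, and -0.16 with cells classed one by one from their markers. Ptgs2 is an immediate early gene. It was set beside 16 immediate early and dissociation genes, among them the heat shock genes Hspa1a, Hspa1b and Dnajb1. These 16 genes summed to 13522, 16660 and 22945 CPM in smooth muscle-like cells and 8573, 9847 and 17927 CPM in fibroblast-like cells. In both classes their sum was highest in APOE4. Ptgs2 was highest there too, at 48.0 against 29.0 CPM in APOE2 in fibroblast-like cells. In smooth muscle-like cells the 2 libraries were close, at 19.4 and 19.0 CPM. The sum was lowest in APOE2 in both classes, while Ptgs2 was lowest in APOE3. In macrophage-like cells the sum was 20250, 29088 and 25129 CPM, highest in APOE3, where Ptgs2 was lowest. The part of that response in the Ptgs2 ratios was not tested.

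In macrophage-like cells, Ednrb was higher in APOE2 (52.8 CPM, 262 UMIs) and APOE4 (48.1 CPM, 82 UMIs) than in APOE3 (19.9 CPM, 29 UMIs). The log2 ratios were 1.41 (interval 0.85 to 2.02) and 1.28 (interval 0.65 to 1.94), and 0.78 and 0.47 as means over cells. Ptgs1 was highest in the APOE3 library in macrophage-like cells, with a log2 ratio of -0.70 in APOE2 and -0.79 in APOE4, and in fibroblast-like cells, with -0.78 in APOE2. It was lower in APOE4 than in APOE3 in smooth muscle-like cells (-0.72, interval -1.04 to -0.40). Agtr1a in fibroblast-like cells was lower in APOE2 than in APOE3, at 2.58 against 4.52 CPM (-0.81, interval -1.48 to -0.13), from 40 and 39 UMIs. The macrophage-like ratio of Ptgis, -1.08 from APOE3 to APOE2, ran with the smooth muscle markers given above, and it was 0.02 as a mean over cells.

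Genes alike in pattern were ranked by Pearson's r of log2(CPM + 1) over 17 sums of class and library, among 14445 genes; the sums share classes and libraries, so r is a description only. The closest was Chrd for Ednra (r = 0.94), Afap1l1 for Ednrb (0.97), Gm26682 for Agtr1a (0.97), Ltbp4 for Ace (0.97) and Hr for Npr3 (0.93). For the prostanoid genes it was Dock4 for Ptgs1 (0.95), Serpine3 for Ptgs2 (0.90), St5 for Ptgis (0.95) and Itgb3 for Ptger3 (0.87), and for P2rx1 it was 5033430I15Rik (0.97). The next 2 for Ednra were Ece2 and Esrrg, and for Ednrb Cd36 and Shtn1.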

How the data were processed

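Single-cell RNA was measured in 3 libraries, 1 for each genotype. The deposited UMI counts per gene and barcode were made by the authors with Cell Ranger (7.0.1 in the file headers) on mm10; counts were used as deposited, with no normalization. Barcodes with at least 200 genes and under 20% mitochondrial UMIs were kept, which left 168310501, 125105151 and 124926887 UMIs in the APOE2, APOE3 and APOE4 libraries. Cells were clustered with Seurat 5.3.0 (sctransform 0.4.2, 3000 features, 30 components, Louvain resolution 0.8) after the 10 genes and 70 pathway genes were removed from the features, and clusters were named from fixed markers. UMIs were summed by library and class, scaled by TMM and tested with edgeR 4.0.16's quasi-likelihood test (library as a term, 12 sums for classes, 6 for position) with Benjamini-Hochberg adjustment over all genes tested. Levels are CPM of a class's UMIs. CPM intervals are exact Poisson and ratio intervals exact conditional binomial, for counting error only. Scrublet's own threshold did not work, so doublets were kept, and leaving out the 8% of cells with the highest scores was an alternative. The fits were tested on simulated data for fibroblast-like, endothelial-like and macrophage-like cells and for position. In that order they called 70, 20, 48 and 84% of 2-fold changes in the right direction. For 4-fold changes it was 89, 63, 91 and 98%. False calls were at most 3.19% of those made. Each simulation changed 200 genes and held the others equal. More genes than that were called different in the data, so the rates there may differ. Alternatives were DESeq2 1.42.0, other filters, resolutions, cell classings and left-out libraries. Gene positions were read from GENCODE and promoter windows from RefSeq.

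All 10 genes are named, with the genes most alike by Pearson's r and some of the pathway genes that were called different. Pathway genes with larger differences were left out, among them Ramp2 (log2 difference 8.75) and Nos3 (6.17) in endothelial-like cells. The genes, lists and tests were chosen with earlier results of these data known. Some alternatives were added after seeing the data: leaving out Schwann-marked cells, the same cluster weights in each library, and Hand2-positive or Hox-positive cells alone. Leaving out a stress-gene cluster (K3) or the cluster with most Ptgs2 (K11) was also added then.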

Additional observations from a re-analysis of the deposited data

Results flagged for a closer look

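In 6 cases the same pair of libraries differed in opposite directions in 2 cell classes. Each class is 1 library a genotype, so none of these differences was tested. From APOE3 to APOE2, Ace had a log2 ratio of 0.0783 in smooth muscle-like and -0.439 in fibroblast-like cells, 0.518 apart. From APOE2 to APOE4, Ace had 0.318 in fibroblast-like and -0.615 in smooth muscle-like cells, 0.932 apart. Ptgs1 between the same libraries had 0.436 in fibroblast-like and -0.347 in smooth muscle-like cells, 0.783 apart. Npr3 from APOE3 to APOE4 had 0.24 in smooth muscle-like and -0.455 in fibroblast-like cells, 0.695 apart. Ptgis from APOE2 to APOE4 had 0.634 in macrophage-like cells, against -0.0355 in smooth muscle-like cells (0.67 apart) and -0.238 in fibroblast-like cells (0.872 apart). In the macrophage-like cells the summed smooth muscle markers also stood higher in APOE4 than in APOE2, at 27.5 and 19.1% of the smooth muscle-like level. Several of these opposite signs were lost under an alternative. With cells classed one by one from their markers the fibroblast-like ratio was -0.112 for Ace from APOE2 to APOE4 and 0.187 for Npr3 from APOE3 to APOE4, Ace from APOE3 to APOE2 was -0.141 in Hand2-positive smooth muscle-like cells and -0.00832 as a mean over cells, and Ptgis from APOE2 to APOE4 was -0.216 in macrophage-like cells as a mean over cells and 0.0749 in smooth muscle-like cells scaled by the median gene. Both Ptgs1 ratios from APOE2 to APOE4 kept their signs under the alternatives run.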

How the results depend on the processing

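Over the 10 genes and all alternatives, 366 of the class differences kept their direction and side of the threshold, 11 lost the call, 7 gained it and 5 turned sign; for position 99 kept it, 5 gained the call and 4 turned sign. Of the 660 ratios between libraries under an alternative, 46 had the other sign than reported, in 32 of 63 ratios, and 5 of the 46 concerned a ratio past 1.5 as reported. For Ednrb between fibroblast-like and smooth muscle-like cells the log2 difference became 1.40 with cells classed one by one from their markers, and it ran from -1.48 to 1.39 with 1 library left out (1.39 without APOE2). For Ptgs2 in endothelial-like cells it became -0.0239 with DESeq2 and -0.0588 in a fit of the 2 classes alone, and it ran from -1.59 (without APOE2) to 0.465 with 1 library left out. For position, Npr3 became -0.0387 with all clusters that keep the muscle markers and -0.00947 with cells classed singly, and ran from -0.00386 (without APOE2) to 0.206 with 1 library left out, and Ptgs1 ran from -0.0784 (without APOE3) to 0.455. Classing cells singly gave Ptgs2 ratios to APOE3 of -0.79 (APOE2) and -0.16 (APOE4) in macrophage-like and -0.052 (APOE2) in smooth muscle-like cells, and means over cells gave Ptgis in macrophage-like cells 0.019 from APOE3 to APOE2 and -0.22 from APOE2 to APOE4. The causes were not tested.

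Leaving out 1 library left 3 to 6 of the 10 genes called in endothelial-like cells, fewest without APOE2. Genes past a ratio of 1.5 from APOE2 to APOE4 in smooth muscle-like cells numbered 4 in Hand2-positive cells alone. They numbered 1 with means over cells, at resolution 1.6, with the same cluster weights in each library or scaled by the median gene. From APOE3 to APOE2 there, they numbered 1 with means over cells, with the same cluster weights or without cluster K11. From APOE3 to APOE4 they numbered 1 at resolution 1.6 or without cluster K3. In fibroblast-like cells they numbered 3 with cells classed singly for both APOE4 ratios, 2 with means over cells (to APOE3) and 2 with at least 10 UMIs (to APOE2). In macrophage-like cells they numbered 5 at resolution 1.6 (to APOE3), and 4 with at least 10 UMIs and 1 with means over cells (to APOE2). Over all genes, position separated 1813 with edgeR, 1124 with DESeq2 and 1083 without APOE3, and endothelial-like cells 5140, or 3245 without APOE2; their split was 2391 higher and 2749 lower with edgeR and 3303 and 2193 with DESeq2. No paired analysis was possible because the genotypes, with 1 library each, share no second replicate number; classes and positions were compared within libraries. Few endothelial-like and neutrophil-like cells limit what was detectable there.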
